A study of Arabidopsis thaliana with 28 samples.

Results

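Tonoplast intrinsic proteins (TIPs) are the aquaporins of the vacuolar membrane. The 10 TIP genes of Arabidopsis thaliana were taken by their gene identifiers, and 8 of them were among the 18310 genes of the expression table. The other two, TIP1;3 (AT4G01470) and TIP5;1 (AT3G47440), were not among those genes and were not analysed here. The table had passed a filter on low counts, so their absence carries no value for their level. The 8 measured genes were TIP1;1 (AT2G36830, also gamma-TIP), TIP1;2 (AT3G26520, gamma-TIP2), TIP2;1 (AT3G16240, delta-TIP), TIP2;2 (AT4G17340, delta-TIP2), TIP2;3 (AT5G47450, delta-TIP3), TIP3;1 (AT1G73190, alpha-TIP), TIP3;2 (AT1G17810, beta-TIP) and TIP4;1 (AT2G25810).

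Seedlings of the wild-type accession Col-0 grew in the dark for 3 days, in hydroponic culture on nylon mesh, and then received the hormone abscisic acid (ABA) at 10 µM, or ethanol as the mock. Whole seedlings were collected after 1, 4, 8, 12, 24, 36 and 60 h of each treatment. The 14 groups held 2 libraries each, 28 in all, made from polyadenylated RNA. All groups shared the genotype, the age at treatment and the darkness. The labels do not say that the 2 libraries of a group came from separate cultures, so the tests reflect how these particular libraries vary, which may be technical variation only.

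Aquaporins are membrane channels for water and, in some members, for small solutes such as glycerol, urea or ammonia. The TIP1 and TIP2 groups are the main channels of the large central vacuole of vegetative cells, whose filling drives cell expansion. The TIP3 pair, alpha-TIP and beta-TIP, belongs to the protein storage vacuoles of the seed, which are remodelled into the central vacuole as the seedling grows. ABA is the hormone of seed maturation and of water shortage, and it holds back growth after germination. The labels give the purpose of the series only through its title, which concerns transcription factors that respond to ABA.

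The values were RPKM, read counts scaled to gene length and library depth. Whole reads could be recovered from them, which gave 16265926 to 26604530 reads per library with a median of 20546830. Differences were fitted with limma on log2(RPKM + 1), a scale that understates the change of genes near 0, over all 18310 genes at once. A gene was called at a Benjamini-Hochberg adjusted p under 0.05. The median difference of all genes lay between -0.019 and 0.009 at the 7 times, so the scale had no offset of note. Markers of shoot and root were both detected, as the label of whole seedlings implies: 3 of 4 shoot markers, all 4 endodermis and all 4 stele markers were in the table.

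Some TIP genes ranked among the most abundant messages of the seedling. Ranked by mean RPKM over the 28 libraries, gamma-TIP2 was the gene of rank 2 of all 18310, at 4905 RPKM, and its lowest library still held 2752 RPKM. Delta-TIP had rank 13 at 1907 RPKM. Gamma-TIP averaged 567 RPKM, delta-TIP2 449 RPKM and delta-TIP3 361 RPKM, which put them at ranks 123, 167 and 222. The seed-type genes were lower, with 101 RPKM for beta-TIP and 66.3 RPKM for alpha-TIP. TIP4;1 was near the floor of the table at 1.52 RPKM, rank 16931, and its libraries held 1 to 119 reads. The 8 genes together took between 6.6 and 13.66 of every 1000 reads of a library.

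The gene length behind an RPKM sets its level. For alpha-TIP and beta-TIP the length implied by the values equalled the annotated exon length, at 1179 and 1173 bases. For delta-TIP2 it was 978 bases against 1353 annotated bases, so levels between genes hold only for the gene models the authors used. Coding sequences within a pair were alike: 81.7% of aligned bases were identical between gamma-TIP and gamma-TIP2, 81.5% between delta-TIP2 and delta-TIP3, and 78.9% between alpha-TIP and beta-TIP. The longest run of bases shared by the transcripts of a pair was 29, 26 and 20 bases in that order. How reads that match both members were counted is not given in the sources used here.

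**Figure D1:**
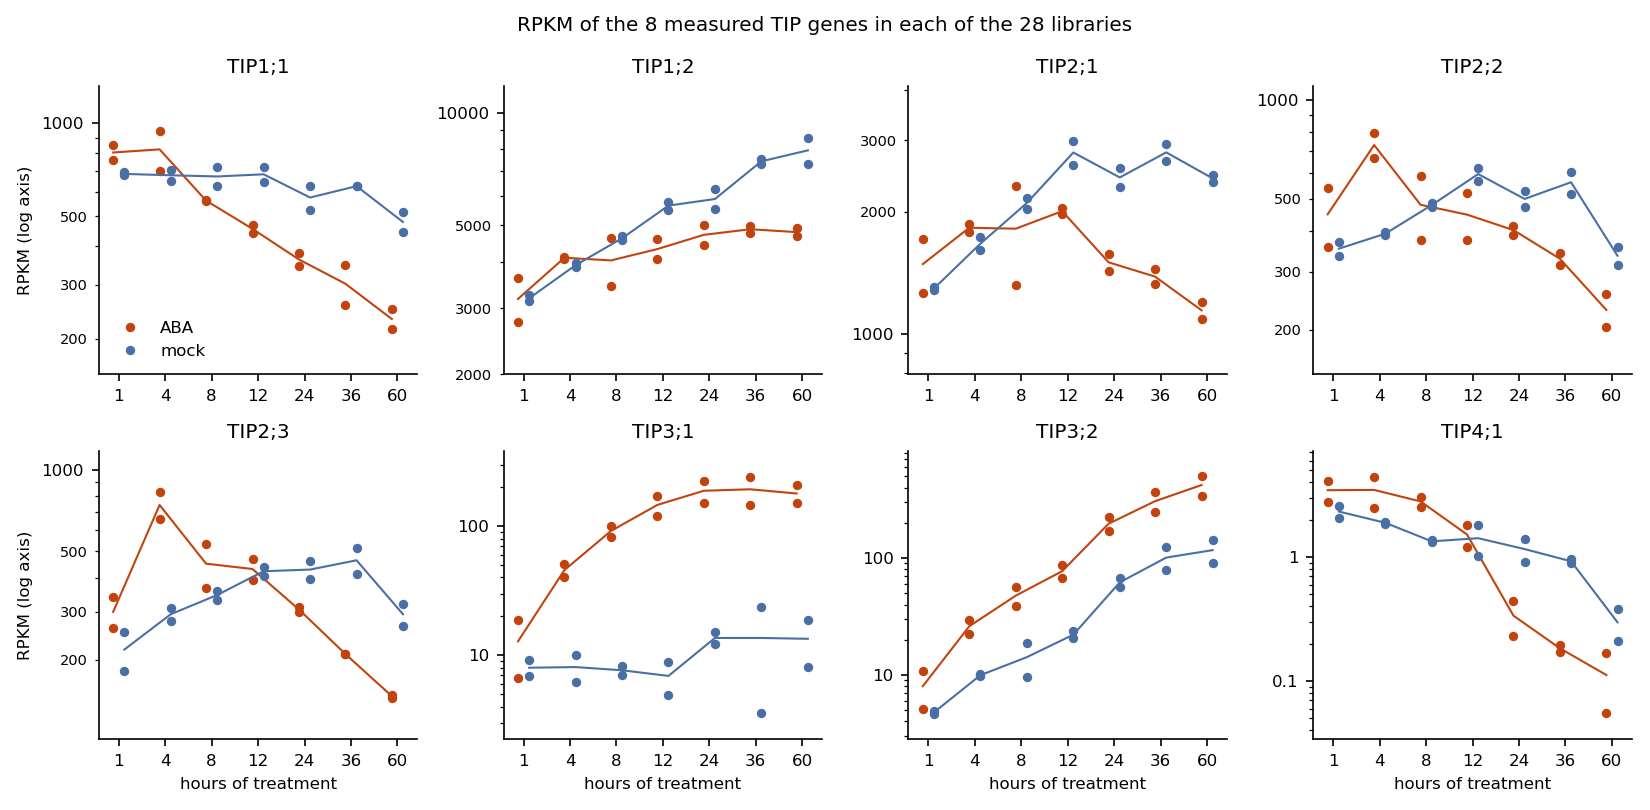
RPKM on a log axis (each panel its own range) of the 8 measured TIP genes against hours of treatment, spaced evenly, with a point for each of the 28 libraries and a line through the mean of each group, ABA in red and mock in blue. Alpha-TIP in ABA lay at 40.4 RPKM or above from 4 h on, where no mock library passed 23.6 RPKM. Delta-TIP3 peaked at 4 h of ABA and was below mock at 36 h and 60 h.

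ABA moved the family in opposite directions. The seed-type pair was higher with ABA from 4 h to the end, and gamma-TIP, delta-TIP and delta-TIP3 were lower with ABA at 36 h and 60 h. At 1 h 0 of the 8 genes were called by limma, 0 with voom weights on the recovered reads, and 1 at an unadjusted p under 0.05 (delta-TIP3, higher). Across all genes 1.70% were called higher and 0.393% lower at that time. Shares of all genes, here and below, are those of the main limma fit at an adjusted p under 0.05. Counts with voom or at an unadjusted p have no such share of their own.

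At 4 h 4 of the 8 were higher with ABA and 0 lower in limma (0 lower also with voom and at an unadjusted p), where 8.98% of all genes were higher and 3.74% lower. At 8 h 3 were higher and 0 lower by limma, with voom 2 and 0, and at an unadjusted p 3 and 0, against 7.92% and 3.57% of all genes. At 12 h 2 were higher and 1 lower, against 8.37% and 4.09%. At 36 h and 60 h more members were lower than higher.

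At 24 h 2 were higher and 2 lower, where 6.64% and 3.88% of all genes were. At 36 h 2 were higher and 5 lower, against 8.24% and 5.59% of all genes. At 60 h 2 were higher and 3 lower, against 7.84% and 5.73%. In the mean of the 7 times 2 were higher and 3 lower, where 21.0% of all genes were higher and 18.1% lower.

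Of the 56 tests of a member at a time 26 were called, and the ABA and mock libraries did not overlap in any of those 26. A call favours a wide gap between these same libraries, so their separation adds no support to it. The ABA and mock libraries did not overlap in 46 of the 56 tests in all. No share over all genes is given beside this count. An exact test of 2 libraries against 2 can give no p below 0.333. With each ABA and mock pair of the same replicate number as a block, 30 of the 56 were called. The share of all genes called with these blocks is not given here, so the move from 26 to 30 has no background beside it. Counts at a time depended on single libraries. In each of the fits named next, fewer of all genes were called as well. The 4 calls at 4 h became 2 without ABA replicate 1 or without mock replicate 1, and 1 without mock replicate 2. The 3 at 8 h became 1 without mock replicate 1. The 4 at 24 h became 1 without ABA replicate 1 and 2 without ABA replicate 2 or without mock replicate 1, and the 7 at 36 h became 4 without ABA replicate 1 and 3 without mock replicate 2. Fits of the 4 libraries of a time alone called 2 members at 24 h, 3 at 36 h and 2 at 60 h, with adjusted p between 0.0504 and 0.253 for the 10 calls they ended from 12 h on.

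**Figure D2:**
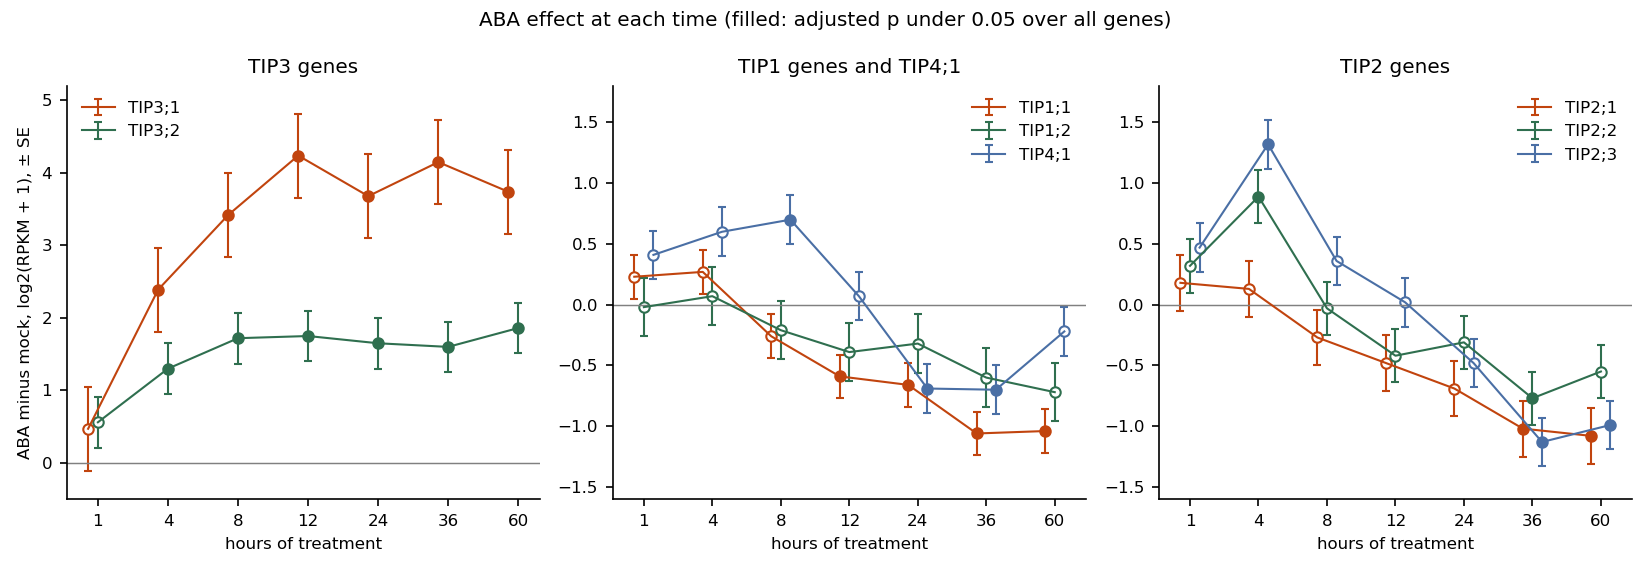
ABA minus mock difference in log2(RPKM + 1), with its standard error, against hours of treatment for the TIP3 genes, the TIP1 genes with TIP4;1, and the TIP2 genes; filled points had an adjusted p under 0.05 over all genes. Alpha-TIP reached 4.24 at 12 h, while delta-TIP3 stood at 1.32 at 4 h and at -1.13 at 36 h; the left panel has its own range.

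Alpha-TIP, the storage-vacuole aquaporin on chromosome 1 (27521944 to 27523332, plus strand, 3 exons, build TAIR10.1), had the largest ABA effect of the family. At 1 h its libraries overlapped, with 18.8 and 6.70 RPKM in ABA seedlings and 9.13 and 6.88 RPKM in mock seedlings. At 4 h it stood at 51.1 and 40.4 RPKM in ABA seedlings and 9.96 and 6.21 RPKM in mock seedlings. At 12 h it held 171 and 120 RPKM in ABA seedlings and 8.87 and 4.95 RPKM in mock seedlings. Every ABA library from 4 h on thus lay above every mock library of the series, the highest of which held 23.6 RPKM.

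Alpha-TIP then stayed high with ABA, at 225 and 151 RPKM at 24 h, 239 and 146 RPKM at 36 h and 208 and 151 RPKM at 60 h. The mock libraries of these times held 15.0 and 12.2 RPKM, 23.6 and 3.59 RPKM, and 18.7 and 8.03 RPKM. The ratio of mean RPKM, ABA over mock, was 5.66 at 4 h, 12.0 at 8 h, 21.1 at 12 h and 13.4 at 60 h. On the log2 scale ABA minus mock was 4.24 ± 0.58 at 12 h (SE, limma adjusted p = 3.59e-05, n = 2 each) and 3.15 ± 0.22 in the mean of the 7 times (adjusted p = 9.04e-10).

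Within every group the replicate 1 library of alpha-TIP was the higher, in 14 of 14 groups. No other measured TIP gene did so, and beta-TIP was higher in replicate 1 in 9 of 14. With the replicate pairs as blocks alpha-TIP had a limma adjusted p of 0.000148 at 4 h. The fits that follow were made without such blocks. The call at 4 h (2.39 ± 0.58, limma adjusted p = 0.00818) was lost without ABA replicate 1 of that time (adjusted p = 0.0815) or without mock replicate 2 (0.1). The calls from 8 h to 60 h held in each of the 28 fits that left out a library.

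Beta-TIP, its storage-vacuole partner, lies on the same chromosome (6130025 to 6131627, plus strand, 3 exons). It climbed in both treatments. In ABA seedlings it held 10.9 and 5.11 RPKM at 1 h, 22.6 and 29.6 RPKM at 4 h, 67.3 and 87.3 RPKM at 12 h and 504 and 341 RPKM at 60 h. In mock seedlings it held 4.92 and 4.64 RPKM at 1 h, 10.1 and 9.81 RPKM at 4 h, 20.6 and 23.7 RPKM at 12 h and 142 and 91.0 RPKM at 60 h. ABA libraries were above mock libraries at every time.

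The ABA over mock ratio of mean RPKM for beta-TIP kept within a narrow range from 4 h on, 2.62 at 4 h, 3.35 at 8 h, 3.49 at 12 h, 3.18 at 24 h, 3.03 at 36 h and 3.62 at 60 h. The difference was 1.49 ± 0.13 in the mean of the times (limma adjusted p = 2.72e-08) and 1.86 ± 0.35 at 60 h (adjusted p = 0.000912). Single calls were lost at 4 h (adjusted p = 0.0171) without mock replicate 1 (0.0803), ABA replicate 2 (0.139) or mock replicate 2 (0.0994), at 8 h (0.00209) without mock replicate 1 (0.0618), at 24 h (0.00334) without ABA replicate 1 (0.0526), and at 36 h (0.00338) without ABA replicate 1 (0.0603) or mock replicate 2 (0.0706).

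The size of the ABA effect did not pass the test of a difference between times for either seed-type gene in limma's moderated F test, with an adjusted p of 0.061 for alpha-TIP and 0.87 for beta-TIP. With the replicate pairs as blocks both passed, at 0.0015 and 0.0259. The same blocks gave beta-TIP a limma adjusted p of 0.000119 at 4 h, and beta-TIP was called with them at each later time. The 14 group means of alpha-TIP and beta-TIP had a Pearson r of 0.73, which put beta-TIP at rank 1759 of the genes most like alpha-TIP. In bulk RNA a difference in the number of cells of a type and a difference in the RNA per cell cannot be told apart, for these genes and for all that follow.

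The sequences before 4 member genes are shown because they cover the largest ABA rise (alpha-TIP), its partner (beta-TIP), a member that was higher early and lower late (delta-TIP3), and gamma-TIP, the member whose window held the ABA-responsive element core. Each line gives the 250 bases before the annotated gene start, 5′ to 3′ on the gene's strand, read from RefSeq's TAIR10.1 assembly, whose nuclear coordinates are those of TAIR10. Capitals mark matches to the ABRE core ACGTGNC, the G-box CACGTG, the RY element CATGCA and the DRE core CCGAC, on either strand, where an ABRE core and a G-box can overlap.
alpha-TIP, chr1:27521694-27521943, plus strand: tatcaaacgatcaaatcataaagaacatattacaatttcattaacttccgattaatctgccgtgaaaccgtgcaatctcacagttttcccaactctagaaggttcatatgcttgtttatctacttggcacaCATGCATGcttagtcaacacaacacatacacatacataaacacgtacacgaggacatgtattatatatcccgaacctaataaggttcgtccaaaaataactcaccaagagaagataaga
beta-TIP, chr1:6129775-6130024, plus strand: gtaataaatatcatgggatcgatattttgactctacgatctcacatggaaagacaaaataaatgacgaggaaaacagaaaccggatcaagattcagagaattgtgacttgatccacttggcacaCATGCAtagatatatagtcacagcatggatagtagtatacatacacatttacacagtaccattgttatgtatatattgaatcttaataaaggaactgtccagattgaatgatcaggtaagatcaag
delta-TIP3, chr5:19249623-19249872, minus strand: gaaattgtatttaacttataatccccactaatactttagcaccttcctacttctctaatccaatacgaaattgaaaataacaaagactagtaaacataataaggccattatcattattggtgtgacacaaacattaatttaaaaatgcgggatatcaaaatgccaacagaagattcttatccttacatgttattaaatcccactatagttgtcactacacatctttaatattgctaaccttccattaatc
gamma-TIP, chr2:15445044-15445293, plus strand: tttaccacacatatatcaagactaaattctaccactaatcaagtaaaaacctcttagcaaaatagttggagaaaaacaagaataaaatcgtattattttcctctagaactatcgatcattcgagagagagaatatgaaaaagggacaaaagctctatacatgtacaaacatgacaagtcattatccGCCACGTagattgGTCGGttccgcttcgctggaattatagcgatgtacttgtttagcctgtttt

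The motifs were searched from 250 bases before to 50 bases after the gene start. The window of alpha-TIP held the RY element, the letters bound by the seed maturation factors of the B3 family, on both strands from -119 and -117, which overlap as CATGCATG. Beta-TIP held it at -126, and a G-box 25 bases into the gene. Of 27443 such windows of protein-coding genes 9.72% held the RY letters, 7.68% the G-box, 10.3% the ABRE core and 15.0% the DRE core. Gamma-TIP held an ABRE core at -64 and a DRE core at -51, and gamma-TIP2 an RY element at -198 and a DRE core at -123.

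None of these letters was found in the windows of the TIP2 genes, TIP4;1, TIP1;3 or TIP5;1. Around the RY element the seed-type pair shared a run of 17 bases, acttggcacaCATGCAt, that began at -129 in alpha-TIP (chr1:27521815-27521831) and at -136 in beta-TIP (chr1:6129889-6129905). It was the longest run shared by any pair among the windows of the 10 genes, where the next longest was 13 bases. A match is a description of the letters and was not tested as a binding site.

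Gamma-TIP, the classical vegetative TIP on chromosome 2 (15445294 to 15446621, plus strand, 2 exons), fell over the series with ABA. Its ABA libraries held 850 and 759 RPKM at 1 h, 945 and 703 RPKM at 4 h, 467 and 442 RPKM at 12 h, 347 and 258 RPKM at 36 h and 250 and 215 RPKM at 60 h. The mock libraries of the same times held 678 and 694 RPKM, 704 and 653 RPKM, 644 and 724 RPKM, 625 and 626 RPKM, and 443 and 515 RPKM. ABA libraries lay above mock at 1 h, overlapped with mock at 4 h, and lay below from 8 h on.

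The difference for gamma-TIP was -0.59 ± 0.18 at 12 h (limma adjusted p = 0.0355), -0.66 ± 0.18 at 24 h (0.019), -1.06 ± 0.18 at 36 h (0.000284) and -1.04 ± 0.18 at 60 h (0.00035). The ABA over mock ratio of mean RPKM was 0.483 at 36 h and 0.485 at 60 h. With the 4 libraries of a time alone gamma-TIP was not called at 12, 24, 36 or 60 h (limma adjusted p = 0.103, 0.253, 0.0617 and 0.0808). The test of a difference between times passed (moderated F, adjusted p = 0.00522). The calls at 36 h and 60 h held whichever library was left out, whereas that at 12 h was lost when any of its 4 libraries was left out (adjusted p 0.0941 and 0.178 without ABA replicates 1 and 2, 0.0776 and 0.225 without mock replicates 1 and 2). That at 24 h was lost without ABA replicate 1 (0.0585), mock replicate 1 (0.18) or ABA replicate 2 (0.143).

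Gamma-TIP2, the most abundant member and the partner of gamma-TIP, lies on chromosome 3 (9722443 to 9723904, minus strand, 2 exons). It rose over the series in both treatments, 1.51-fold with ABA and 2.49-fold in mock seedlings, where gamma-TIP fell. At 60 h it held 4909 and 4691 RPKM in ABA seedlings and 8580 and 7307 RPKM in mock seedlings. At 1 h it had held 3609 and 2752 RPKM in ABA seedlings and 3137 and 3249 RPKM in mock seedlings, which overlapped. From 12 h on its ABA libraries lay below its mock libraries.

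No single time was called for gamma-TIP2. The difference was -0.60 ± 0.24 at 36 h (limma adjusted p = 0.117) and -0.72 ± 0.24 at 60 h (0.0546, or 0.0461 with the replicate pairs as blocks). The mean of the 7 times was called at -0.31 ± 0.09 (adjusted p = 0.00981). Without the intensity trend in the prior variance the adjusted p was 0.00661 at 36 h and 0.00155 at 60 h. The test of a difference between times gave an adjusted p of 0.976.

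Delta-TIP, a TIP2 channel known for conducting ammonia as well as water, lies on chromosome 3 (5505360 to 5507050, plus strand, 3 exons). It did not pass the test at 4 h (0.13 ± 0.23, limma adjusted p = 0.838), with 1787 and 1870 RPKM in ABA seedlings and 1732 and 1608 RPKM in mock seedlings at 4 h. At 36 h it held 1327 and 1443 RPKM in ABA seedlings and 2666 and 2942 RPKM in mock seedlings. At 60 h it held 1200 and 1088 RPKM in ABA seedlings and 2368 and 2470 RPKM in mock seedlings. The ABA libraries lay below the mock libraries from 12 h on, and 8 h of ABA gave the widest pair, 1323 and 2313 RPKM.

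The difference for delta-TIP was -1.02 ± 0.23 at 36 h (limma adjusted p = 0.00462) and -1.08 ± 0.23 at 60 h (0.00292), a ratio of mean RPKM of 0.494 and 0.473. The mean over the times was -0.46 ± 0.09 (adjusted p = 0.00032). At 24 h it was -0.69 ± 0.23 with an adjusted p of 0.0657, or 0.026 with the replicate pairs as blocks. The call at 36 h was lost without mock replicate 2 of that time (adjusted p = 0.0505). The test of a difference between times gave 0.0835, or 0.0325 with blocks. With the 4 libraries of a time alone delta-TIP was not called at 36 h or 60 h (limma adjusted p = 0.118 and 0.218).

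Delta-TIP2 and delta-TIP3 are close relatives of delta-TIP, known mainly from roots. They lie on chromosome 4 (9698940 to 9700472, plus strand, 2 exons) and chromosome 5 (19248249 to 19249622, minus strand, 2 exons). Both were higher with ABA at 4 h and lower at 36 h. Delta-TIP3 held 826 and 656 RPKM in ABA seedlings at 4 h, its highest mean of any group, and 277 and 311 RPKM in mock seedlings. At 36 h it held 210 and 210 RPKM in ABA seedlings and 412 and 516 RPKM in mock seedlings, and at 60 h 148 and 145 RPKM in ABA seedlings and 321 and 267 RPKM in mock seedlings.

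The early rise of delta-TIP3 was 1.32 ± 0.20 (limma adjusted p = 0.000129), 2.52-fold in mean RPKM. The late falls were -1.13 ± 0.20 at 36 h (0.000638) and -0.99 ± 0.20 at 60 h (0.00221). At 8 h (0.36 ± 0.20) and 12 h (0.02 ± 0.20) it was not called. These 3 calls held whichever library was left out, and the effect differed between times (moderated F, adjusted p = 0.00016). The effect at 60 h minus that at 4 h was -2.31 ± 0.29 (adjusted p = 0.000139). With the 4 libraries of 60 h alone delta-TIP3 was not called at that time (limma adjusted p = 0.0649).

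Delta-TIP2 followed with smaller changes. At 4 h it held 792 and 665 RPKM in ABA seedlings and 396 and 388 RPKM in mock seedlings (0.89 ± 0.22, limma adjusted p = 0.0104). At 36 h it held 342 and 316 RPKM in ABA seedlings and 519 and 605 RPKM in mock seedlings (-0.77 ± 0.22, adjusted p = 0.0254). The early call was lost without ABA replicate 1 (0.125), mock replicate 1 (0.0581) or mock replicate 2 (0.071), and under quantile normalization (0.0635). The late call was lost when any of its 4 libraries was left out (adjusted p 0.076 and 0.145 without ABA replicates 1 and 2, 0.0519 and 0.183 without mock replicates 1 and 2). At 60 h the difference was -0.55 ± 0.22 (0.128, or 0.0498 with blocks).

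The late minus early contrast bears on that turn. The ABA effect at 60 h minus the effect at 4 h was lower for 3 of the 8 members and higher for 0 by limma. By the same limma test 1.73% of all genes were lower and 0.732% higher. The member counts were 4 and 0 with voom and 6 and 0 at an unadjusted p, with no share of all genes beside them. The 3 were delta-TIP3, delta-TIP2 (-1.44 ± 0.31, limma adjusted p = 0.0162) and gamma-TIP (-1.31 ± 0.25, 0.00623). Delta-TIP was at -1.21 ± 0.33 (0.0596, or 0.019 with blocks). Without ABA replicate 1 of 4 h the count became 1, because gamma-TIP (0.0517) and delta-TIP2 (0.0927) were no longer called.

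Delta-TIP2 was also lost from that contrast without mock replicate 1 (0.0581) or 2 (0.0713) of 4 h, mock replicate 1 of 60 h (0.0798) or ABA replicate 2 of 60 h (0.082). Over all times the F test called 4 of the 8 members as having an ABA effect that differed between times, where it called 4.17% of all genes. These were gamma-TIP, delta-TIP2 (adjusted p = 0.0265), delta-TIP3 and TIP4;1 (0.0115). With the replicate pairs as blocks it called 7, for which the 4.17%, from the fit without blocks, is no background. Delta-TIP2 was no longer called by it without either mock library of 1 h (0.0587 and 0.0529), either ABA library of 4 h (0.117 and 0.0519), either mock library of 4 h (0.0917 and 0.1), or replicate 2 of ABA (0.0596) or mock (0.0593) of 36 h.

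TIP4;1, a little-expressed member on chromosome 2 (11012499 to 11014171, plus strand, 3 exons), crossed over as well, at levels of few reads. The 2 ABA libraries together held 170, 178, 133, 75, 15, 8 and 5 reads from 1 h to 60 h, and the 2 mock libraries together 120, 101, 64, 77, 50, 40 and 13 reads. Per depth the ABA over mock ratio of reads was 2.08 at 8 h (95% interval 1.54 to 2.85) and 0.198 at 36 h (0.0800 to 0.429). At 60 h it was 0.389 with an interval of 0.109 to 1.16, which includes no difference. These intervals cover counting error only.

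On the log2(RPKM + 1) scale the difference for TIP4;1 was 0.70 ± 0.20 at 8 h (limma adjusted p = 0.0322), -0.69 ± 0.20 at 24 h (0.0372) and -0.70 ± 0.20 at 36 h (0.0269). All 3 calls were fragile. Those at 8 h and 36 h were lost when any library of that time was left out, with adjusted p of 0.0728 to 0.179 and of 0.0908 to 0.134, and that at 24 h without either ABA library (0.244 and 0.0674) or mock replicate 1 (0.279). With the limma-voom weights on the recovered reads the adjusted p was 0.0676 at 8 h and 0.0618 at 24 h, and with a pseudocount of 5 RPKM it was 0.194 at 24 h and 0.204 at 36 h. At 4 h it was 0.60 ± 0.20 (0.0658, or 0.0444 with blocks).

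**Figure D3:**
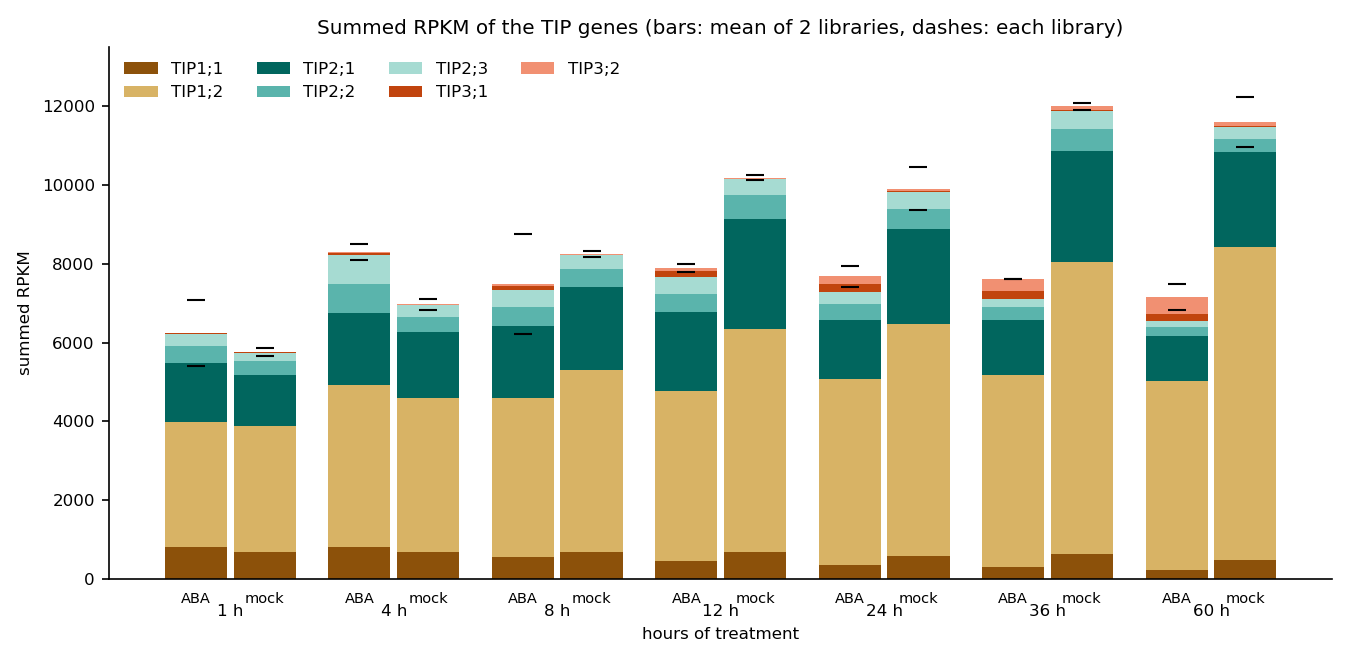
Summed RPKM of 7 TIP genes, stacked by gene, for ABA (left bar) and mock (right bar) at each time; bars are means of 2 libraries, dashes are the sums of each library, and TIP4;1 is left out as too small to be seen. The ABA bars end at 7475 and 6836 RPKM at 60 h, below the mock sums of 12230 and 10973 RPKM, and the red segments of the seed-type genes at the top are thicker in the ABA bars from 8 h on.

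Added up, the TIP genes held 7087 and 5404 RPKM in ABA seedlings and 5655 and 5866 RPKM in mock seedlings at 1 h. At 36 h they held 7609 and 7616 RPKM in ABA seedlings and 11901 and 12090 RPKM in mock seedlings. At 60 h the sums were 7475 and 6836 RPKM in ABA seedlings and 12230 and 10973 RPKM in mock seedlings. The sums did not overlap at 4 h, with ABA above mock, nor from 12 h on, with ABA below mock. No test was run on the sum.

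The makeup of that sum shifted with ABA. At 60 h gamma-TIP2 made up 67.1% in ABA seedlings and 68.4% in mock seedlings, and delta-TIP 16.0% in ABA seedlings and 20.9% in mock seedlings. Gamma-TIP made up 3.24% in ABA seedlings and 4.16% in mock seedlings at that time. The seed-type pair took 2.49% (alpha-TIP) and 5.86% (beta-TIP) in ABA seedlings, against 0.113% and 0.996% in mock seedlings. At 4 h delta-TIP2 and delta-TIP3 had made up 8.77% and 8.91% in ABA seedlings, against 5.62% and 4.23% in mock seedlings.

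Over the series itself the share of members called was near that of all genes in mock seedlings. In mock seedlings at 60 h, set against mock at 1 h, 3 of the 8 were higher and 2 lower, where 30.3% of all genes were higher and 31.1% lower. Beta-TIP was 24.4-fold higher (4.31 ± 0.35, limma adjusted p = 2.51e-08), gamma-TIP2 2.49-fold (1.31 ± 0.24, 0.000147) and delta-TIP 1.87-fold (0.90 ± 0.23, 0.00263). Gamma-TIP was lower (-0.52 ± 0.18, 0.0168), and TIP4;1 was lower (-1.36 ± 0.20, 2.02e-05). Alpha-TIP was not called, at 0.58 ± 0.58 (0.401).

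In ABA seedlings at 60 h, set against ABA at 1 h, 3 of the 8 were higher and 4 lower, where 31.9% of all genes were higher and 32.0% lower. Beta-TIP was 52.7-fold higher (5.61 ± 0.35, limma adjusted p = 1.35e-09) and gamma-TIP2 1.51-fold (0.61 ± 0.24, 0.0347). Alpha-TIP was higher as well (3.85 ± 0.58, 1.80e-05). Gamma-TIP was lower (-1.79 ± 0.18, 1.67e-07), as were TIP4;1 (-1.99 ± 0.20, 2.58e-07), delta-TIP3 (-1.01 ± 0.20, 0.000331) and delta-TIP2 (-0.94 ± 0.22, 0.00131).

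The rise of gamma-TIP2 in ABA seedlings was lost without ABA replicate 2 of 1 h (adjusted p = 0.225) or without either ABA library of 60 h (0.108 and 0.078), and under quantile normalization (0.804). The fall of gamma-TIP in mock seedlings was lost without either mock library of 1 h (0.057 and 0.068) or mock replicate 1 of 60 h (0.125). Any change over time was called by the F test for 6 of the 8 in mock seedlings, all but gamma-TIP and alpha-TIP, where 55.0% of all genes were called. Delta-TIP2 was lost there without mock replicate 2 of 60 h (0.0168 with it, 0.0531 without it) and, with delta-TIP, under quantile normalization (0.0588 and 0.0604). With the replicate number as a block gamma-TIP was called too (0.117 without it, 0.0425 with it). In ABA seedlings 6 of the 8 were called, all but gamma-TIP2 and delta-TIP, where 60.1% of all genes were. Delta-TIP was called there with the block (0.0648 without it, 0.0452 with it).

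Ordered by mean RPKM over the 14 groups, the highest groups of gamma-TIP were 4 h and 1 h of ABA (824 and 805 RPKM), and its lowest 60 h of ABA (232 RPKM). Gamma-TIP2 was highest at 60 h of mock (7943 RPKM) and lowest at 1 h of ABA (3180 RPKM). Delta-TIP was highest at 36 h and 12 h of mock (2804 and 2802 RPKM) and lowest at 60 h of ABA (1144 RPKM). The same group was the lowest of delta-TIP2 (230 RPKM) and delta-TIP3 (147 RPKM), whose highest was 4 h of ABA (729 and 741 RPKM).

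Neighbours in these orders often overlapped in their libraries. This held for 10 of the 13 neighbouring pairs of groups for gamma-TIP2, delta-TIP2 and alpha-TIP, 8 of 13 for gamma-TIP, delta-TIP3, beta-TIP and TIP4;1, and 7 of 13 for delta-TIP. For alpha-TIP 36, 24, 60 and 12 h of ABA headed the order (193, 188, 179 and 146 RPKM) and each overlapped with the next. Its ABA groups of 8 h and 4 h (91.7 and 45.7 RPKM) stood apart from their neighbours, and the mock groups with 1 h of ABA closed the order.

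The genes whose 14 group means of log2(RPKM + 1) followed a member most closely were taken among the 17663 genes with a mean of at least 1 RPKM. For alpha-TIP these were PER1, a peroxiredoxin of seeds (Pearson r 0.997), AGL67, a MADS-box factor (0.990), and CYP707A2, an ABA-degrading hydroxylase (0.990). For beta-TIP they were NUDX15 (0.993), GLX2-5 (0.992) and CNGC6 (0.992). Delta-TIP2 and delta-TIP3 were each other's closest gene of all (0.942). These are descriptions over groups that share treatment and time.

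For gamma-TIP2 the closest were GH9A1 (0.994), which encodes the cellulase-type enzyme KORRIGAN of cellulose synthesis, AT4G27740 (0.984) and RABG3B, a small GTPase of the late endosome and vacuole (0.980). For delta-TIP they were COPT1, a copper transporter (0.953), AT1G62480 (0.952) and AT3G19390 (0.951). For gamma-TIP they were AT3G56480 (0.978), AT1G76550 (0.975) and AT4G14290 (0.974). For TIP4;1 they were AGP30, an arabinogalactan protein known from roots (0.982), PIP1B, a plasma membrane aquaporin (0.978), and AT3G16370 (0.971).

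**Figure D4:**
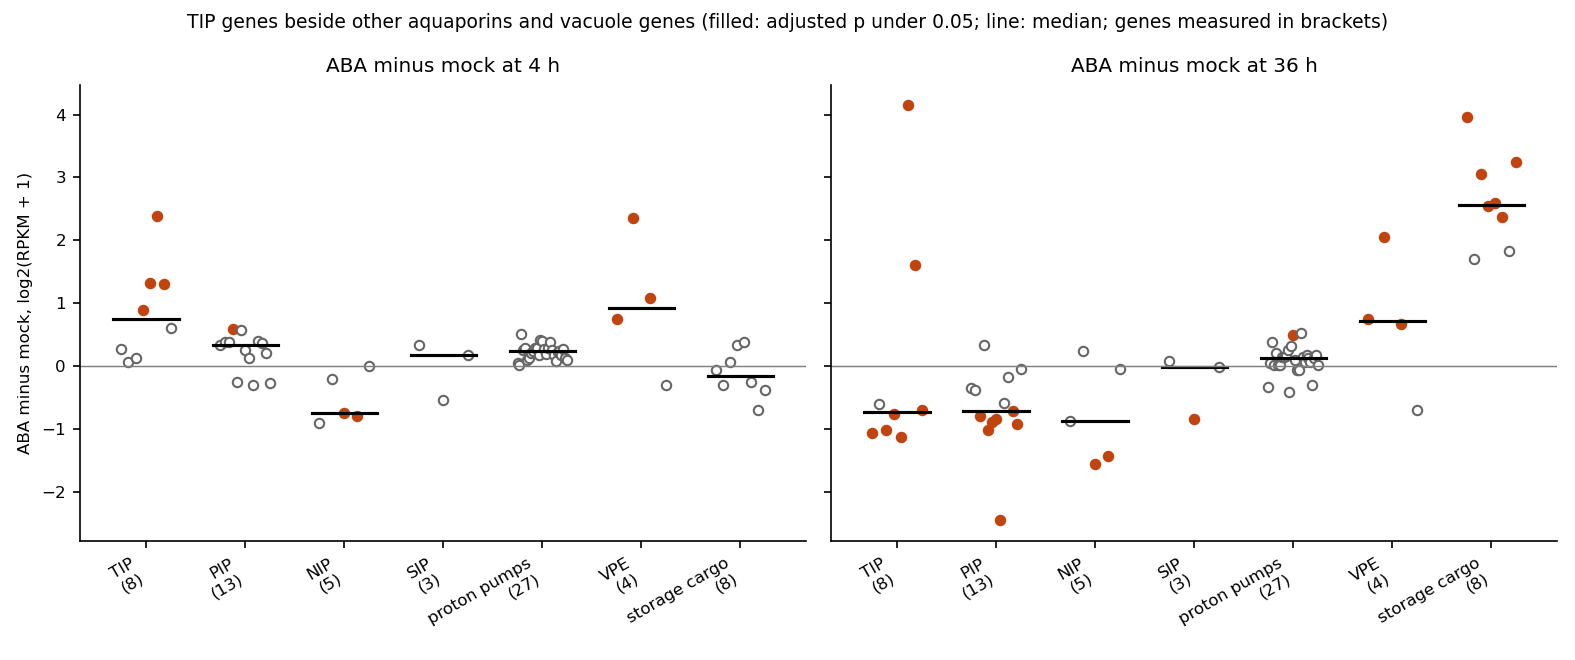
ABA minus mock difference in log2(RPKM + 1) of each measured gene of the TIP family, the other aquaporin families, the vacuolar proton pumps, the vacuolar processing enzymes (VPE) and the storage-protein cargo, at 4 h (left) and 36 h (right); filled points had an adjusted p under 0.05 over all genes and lines are medians. At 36 h 5 TIP and 7 PIP genes were lower, while 2 TIP genes and 6 of 8 cargo genes were higher. Over all genes 5.59% were lower and 8.24% higher at that time.

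The plasma membrane aquaporins (PIPs) carry water across the outer membrane of the cell, and all 13 were measured. At 4 h 1 was higher, PIP1;4 (126 RPKM in ABA seedlings and 83.4 RPKM in mock seedlings, 0.59 ± 0.15, limma adjusted p = 0.0108), and 0 were lower (with voom 2 and 0, at an unadjusted p 3 and 0). At 36 h 7 of 13 were lower and 0 higher (the same counts with voom, 7 and 1 at an unadjusted p) with a median difference of -0.71, and at 60 h 5 were lower and 0 higher (6 and 1 with voom, 7 and 2 unadjusted) with a median of -0.58. The median of all genes was 0.006 at 36 h and 0.002 at 60 h. Over all genes 8.98% were higher and 3.74% lower at 4 h. The shares were 8.24% and 5.59% at 36 h, and 7.84% and 5.73% at 60 h.

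RD28 (PIP2;3), named for its response to drying, had the largest PIP fall, to 17.9 RPKM in ABA seedlings against 103 RPKM in mock seedlings at 36 h (-2.46 ± 0.24, limma adjusted p = 6.90e-07). PIP1C, PIP1;5, PIP2A, PIP2B, PIP2E and PIP3 were the others called lower at 36 h, at -0.71 to -1.02. In the mean of the times 8 PIPs were lower and 2 higher, where 18.1% of all genes were lower and 21.0% higher. Of the nodulin-26-like aquaporins (NIPs) 5 of 9 were measured, and NIP3;1 and the boric acid channel NIP5;1 were lower at both 4 h and 36 h. Over all genes 3.74% were lower at 4 h and 5.59% at 36 h. Of the 3 SIPs of the endoplasmic reticulum SIP1;2 was lower at 36 h (-0.84 ± 0.23, limma adjusted p = 0.0166).

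Other components of the vacuolar membrane showed smaller differences. Of 29 genes for the vacuolar proton pumps, which energise the tonoplast, 27 were measured, and at 36 h 1 was higher (VMA10, 0.49 ± 0.13, limma adjusted p = 0.0174) and 0 lower (1 and 0 with voom, 1 and 1 unadjusted). The median of the list was 0.12 at that time, when 8.24% of all genes were higher and 5.59% lower. In the mean of the times 9 were higher and 0 lower (9 and 0 with voom, 12 and 1 unadjusted), with a median of 0.13, where 21.0% of all genes were higher and 18.1% lower. AVP1, the vacuolar pyrophosphatase, was at -0.13 ± 0.09 (0.269).

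Of the 4 vacuolar processing enzymes, the proteases that mature vacuolar proteins, 3 were higher at 4 h, where 8.98% of all genes were. These were beta-VPE and the vegetative-type alpha-VPE and gamma-VPE. Beta-VPE, the seed-type enzyme, held 43.3 RPKM in ABA seedlings and 7.72 RPKM in mock seedlings at that time (2.36 ± 0.32, limma adjusted p = 2.93e-05). Delta-VPE was lower in the mean of the times (-0.59 ± 0.13, 0.00104).

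Of 9 cruciferin and 2S albumin genes, the protein cargo of the storage vacuole, 8 were measured. At 4 h, when alpha-TIP and beta-TIP were called, 0 of the 8 cargo genes were by limma, with voom or at an unadjusted p, with a median of -0.16. Standard errors at 4 h ran from 0.61 (CRU2) to 1.01 (SESA5) for the cargo, against 0.58 for alpha-TIP and 0.35 for beta-TIP. The cargo median was 0.32 at 8 h, 1.14 at 12 h and 0.51 at 24 h, with 0 called by limma at each. At 36 h 6 of 8 were higher with a median of 2.57, led by the cruciferin CRA1 (788 RPKM in ABA seedlings and 105 RPKM in mock seedlings, 3.96 ± 0.89, limma adjusted p = 0.00427). At 60 h 1 was higher, again CRA1, with a median of 1.33. Over all genes 8.98% were higher at 4 h, 8.24% at 36 h and 7.84% at 60 h. Whether the TIP3 genes and the cargo differ in timing was not tested.

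Some markers of root tissues were lower with ABA, at late times for the endodermis and from early times for the stele and root cap. The summed RPKM of the 4 endodermis markers was 285 and 198 in ABA seedlings and 574 and 327 in mock seedlings at 36 h, and 230 and 140 in ABA seedlings and 493 and 317 in mock seedlings at 60 h. CASP4, a Casparian strip protein, was the 1 endodermis marker of 4 called lower at both times (-1.11 ± 0.23 at 36 h, limma adjusted p = 0.00235), and SCR was at -0.09 ± 0.25 (0.909). At 4 h the endodermis sum was 494 and 323 in ABA seedlings and 338 and 266 in mock seedlings.

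The 4 stele markers summed to 32.3 and 24.3 RPKM in ABA seedlings and 74.9 and 68.1 RPKM in mock seedlings at 36 h, and to 31.1 and 29.3 RPKM in ABA seedlings and 53.6 and 44.9 RPKM in mock seedlings at 4 h, when delta-TIP2 and delta-TIP3 were higher. PHO1 and SKOR were called lower of the 4 at each time from 4 h on, and SKOR at 1 h too. SHR and HKT1 were not called at any single time. At 36 h they stood at -0.25 ± 0.25 and -0.18 ± 0.21 (limma adjusted p = 0.632 and 0.71). SHR was lower in the mean of the times (-0.26 ± 0.09, 0.0335). PHO1 alone held a mean of 11.5 RPKM in ABA seedlings and 49.0 RPKM in mock seedlings at 36 h, so the sum mostly followed PHO1. Over all genes 3.57% to 5.73% were lower at the times from 4 h on. The only root cap marker in the table, SMB, was lower at 4 h (-0.63 ± 0.18, limma adjusted p = 0.0257), 24, 36 (-1.01 ± 0.18, 0.000608) and 60 h. The 3 measured root hair markers of 5 summed to at most 6.71 RPKM in any library and 0 were called at any single time by limma, with voom or at an unadjusted p, and EXPA18 was listed at 0 in every library of 60 h. The part of these tissues in the TIP differences was not tested.

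None of the 3 measured shoot markers of 4, and none of the 3 guard cell markers, was called at 36 h or 60 h by limma or with voom. At an unadjusted p 0 shoot markers were called at these times, and 2 guard cell markers at 36 h and 1 at 60 h, all lower. In the mean of the 7 times the guard cell marker MYB60 was lower (-0.42 ± 0.12, limma adjusted p = 0.0107), where 18.1% of all genes were. All 3 guard cell markers were lower in that mean at an unadjusted p, and 0 shoot markers were called. The shoot sum was 45.0 and 39.5 RPKM in ABA seedlings and 47.0 and 37.7 RPKM in mock seedlings at 60 h. The shoot sums of the treatments overlapped there. The part of shoot tissue or guard cells in the TIP differences was not tested.

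In the authors' deposited table, 24 of the 56 comparisons of a member at a time had a false discovery rate under 0.05. The share of all genes under that rate is not given here, so this count has no background beside it. All 24 were among the 26 called here. The authors' deposited table gave a log2 fold change of 4.39 for alpha-TIP at 12 h (false discovery rate 2.01e-11) and of 1.33 for delta-TIP3 at 4 h (1.99e-06). For TIP4;1 at 36 h the authors' deposited table gave -2.30 (0.00129), larger in size than the -0.70 found here on the log2(RPKM + 1) scale.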

How the data were processed

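Polyadenylated RNA was sequenced from whole seedlings in 14 groups of 2 libraries, placed by the sample titles. The deposited table, made by the authors with HTSeq 0.5.4 and edgeR 3.6.2 on build TAIR10 per the submitters' processing notes, held RPKM per gene and library. It also held the authors' log2 fold change and false discovery rate (a q-value) for ABA over mock at each time. Its name refers to a filter on low counts, so a gene outside it has no value here. The aligner, the strand setting and the scaling are not given in the sources used here.

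RPKM values were turned back into reads with integer gene lengths: 100.0% of 512680 values came out whole within 0.01 reads. The main fit used limma 3.58.1 in R 4.3.3 on log2(RPKM + 1), a pseudocount of 1 RPKM, fitting the 14 group means with an intensity trend and no filter, which left 14 residual degrees of freedom and 17.7 with the prior. The median standard error at 1 time was 0.186. Benjamini-Hochberg adjustment ran over all 18310 genes, two-sided, at 0.05. The code was tested on simulated data.

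Same-numbered ABA and mock libraries deviated together from their group means at all 7 times (Pearson r across genes 0.43 to 0.74), so the numbers were taken to pair the libraries, from the data and not from the labels. A fit with these pairs as blocks was an alternative. The others were pseudocounts of 0.1 and 5 RPKM, a minimum mean of 1 RPKM, median-ratio scaling, quantile normalization, no intensity trend, each time's 4 libraries alone, each library left out, and voom weights on the recovered reads, the last chosen after seeing the data.

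The members and lists were chosen with earlier results of these data known. All 10 members are named. For the 8 measured ones the genes most like each were ranked by Pearson r of the 14 group means (mean RPKM of at least 1). The top 3 are named, or the closest alone for delta-TIP2 and delta-TIP3. Members of the other lists with the largest called differences come first. Motif matches and identities were computed with Python 3.11.15 and Biopython 1.88 from RefSeq's TAIR10.1 assembly. Protein sequences were not used here.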

Additional observations from a re-analysis of the deposited data

Results flagged for a closer look

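The ABA effect on 4 TIP genes differed between the 7 times by the moderated F test of limma over all genes. The adjusted p was 0.00522 for TIP1;1 (gamma-TIP), whose ABA minus mock difference in log2(RPKM + 1) was 0.27 at 4 h and -1.04 at 60 h. It was 0.0265 for TIP2;2 (delta-TIP2), at 0.89 and -0.55 at these times, and 0.00016 for TIP2;3 (delta-TIP3), at 1.32 and -0.99. It was 0.0115 for TIP4;1, at 0.60 and -0.22, whose libraries at 60 h held 5 reads with ABA and 13 reads in mock. Groups of 2 libraries are too small for a check on single outlying libraries.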

How the results depend on the processing

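The count of members called stayed within 1.5 times of the value in the report under both pseudocounts, the minimum mean, median-ratio scaling, quantile normalization and voom weights, in every comparison tested. It moved with the replicate block for the effect that differs between times (7 members), without the intensity trend for the effect at 60 h minus that at 4 h (5 members), and with the 4 libraries of a time alone at 24 h (2), 36 h (3) and 60 h (2). These counts have no share of all genes beside them. No difference of a member reversed its direction while called. The replicate block changed the calls named in the report and no other call. Leaving out each library in turn gave counts of 0 to 0 at 1 h, 1 to 4 at 4 h, 1 to 3 at 8 h, 2 to 3 at 12 h, 1 to 5 at 24 h, 3 to 7 at 36 h, 5 to 6 at 60 h and 5 to 5 in the mean of the times. The counts were 3 to 5 for the effect that differs between times, 1 to 4 for 60 h minus 4 h, 5 to 6 and 6 to 7 for change over time in mock and in ABA seedlings by the F test, and 4 to 5 and 6 to 7 for 60 h minus 1 h in mock and in ABA seedlings. The cause of these moves was not tested. With 2 libraries a group, a left-out library leaves a lone one that is assumed to vary like the other groups. Of the 26 calls at single times 13 held in all 28 such fits. Depth limits TIP4;1, at 1 to 119 reads a library.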
